A study of Mus musculus with 2 samples.

Results

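The smooth muscle contractile genes Myh11, Acta2, Actg2, Tagln, Cnn1, Mylk, Myl9, Lmod1 and Smtn were read across the cell classes of denervated hind limb muscle. These 9 genes were chosen by name as parts of the contractile apparatus of smooth muscle, and all 9 were found among the 32287 features of the matrix. The cells came from 2-month-old male mice of genotype S100GFPtg, labelled WT, in which the S100B promoter drives green fluorescent protein (GFP). The study also bred S100GFPtg Sod1-/- mice, which are not analysed here. Tibialis anterior and gastrocnemius muscles were taken 7 days after sciatic nerve crush, and viable cells were sorted into a GFP+ and a GFP- fraction. Each fraction gave 1 droplet library with tags at the 3′ end of transcripts. The sources speak of pooled animals in one place and of a single crushed animal in another, so the number of animals behind the GFP+ library is not certain, and of the GFP- library only the barcode names were used. With 1 library there was no test, and every interval below is a 95% interval for counting error only.

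In smooth muscle, myosin pulls on actin filaments once the regulatory light chain of myosin has been phosphorylated by myosin light chain kinase, which calcium switches on. Vascular smooth muscle wraps arteries and arterioles, while pericytes sit on capillaries and share part of its gene programme. Several of these genes are also known from activated fibroblasts (myofibroblasts), in which Acta2 is the usual marker, and some are used for a time by developing skeletal muscle. Serum response factor drives many of them with its partner myocardin by binding a short palindrome, the CArG box, which starts with a pair of C, ends with a pair of G and has only A or T between them.

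Promoters from RefSeq (GRCm38.p6) were matched for 6 members, namely Acta2, Cnn1, Mylk, Myl9, Lmod1 and Smtn, as windows from 250 bases before to 50 after a start site. An exact CArG box stood in 1 of these 6 windows, that of Myl9, and in 1.63% of all 32851 windows of this length. When 1 of the 6 middle letters was allowed to be G or C, Acta2 and Myl9 held a match, against 9.98% of all windows. Matches were read on both strands, which are the same for this palindrome, and a match says nothing of binding. The stretches with matches are shown because they hold the only matches of these 6 genes, with each match in capitals. The Acta2 stretch lies at chr19:34255388-34255467 on the minus strand, and its matches start 84 and 34 bases before the start site. The Myl9 stretch lies at chr2:156775293-156775384 on the plus strand, with the exact box 161 and the other match 99 bases before the start site. Both start sites are those of the promoter table and lie inside the gene spans given below, which begin further upstream. The Acta2 stretch therefore lies within the span of its gene, and the Myl9 stretch lies before the span of its own.
Acta2: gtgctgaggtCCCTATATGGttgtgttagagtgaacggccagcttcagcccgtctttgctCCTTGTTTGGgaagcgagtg
Myl9: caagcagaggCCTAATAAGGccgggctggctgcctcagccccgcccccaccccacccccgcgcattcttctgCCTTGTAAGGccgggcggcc

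The GFP+ library held 36400 barcodes and 170648616 unique molecular identifiers (UMIs), each a count of 1 tagged transcript, with a median of 2130 UMIs per barcode. Filters of at least 1500 UMIs, over 200 genes and less than 10% mitochondrial UMIs left 25316 barcodes. A class was given by marker UMIs that did not include any of the 9 members, and a barcode had to pass the gate of 1 class only. The gates gave 122 smooth muscle, 54 pericyte, 6509 fibroblast, 857 tenocyte, 264 satellite cell and myoblast, 203 endothelial, 196 Schwann and 9282 myeloid barcodes. Smaller gates gave 159 muscle fibre and 214 erythroid barcodes, and 22 mural barcodes could not be split between smooth muscle and pericytes. A further 3087 barcodes passed several gates and 4347 passed none. The mural gate, from which smooth muscle and pericytes were split, was passed by 750 kept barcodes. Of these, 356 also passed the fibroblast gate, 120 the myeloid gate and 83 the endothelial gate. Most mural barcodes were thus left out of the smooth muscle and pericyte classes. Median depth ran from 2084 UMIs in pericytes to 8970.5 in satellite cells and myoblasts, and barcodes with at least 5000 UMIs are called deep below.

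The gates used the marker genes given next, so the levels of these genes in each class depended on the rule and are a description. The split of mural barcodes used the smooth muscle and pericyte lists, and Rgs5 is in neither. Rgs5, a regulator of G protein signalling used to mark pericytes, stood at 4421 UMIs per 1000000 UMIs of the class (CPM) in pericytes and at 196.2 CPM in smooth muscle. Abcc9 and Kcnj8, the subunits of a vascular potassium channel, stood at 693.2 and 284.1 CPM in pericytes against 5.34 and 2.67 CPM in smooth muscle. Pln, phospholamban, stood at 648.7 CPM in smooth muscle with no UMI in pericytes. Not every list gene followed the split. Cox4i2 of the pericyte list stood at 177.5 CPM in smooth muscle and 147.7 CPM in pericytes, and Fhl5 of the smooth muscle list at 14.7 and 17.0 CPM. The 13 myeloid list genes summed to 3825 CPM in smooth muscle, 5483 CPM in pericytes and 3042 CPM in fibroblasts, against 23978 CPM in myeloid barcodes themselves. Myeloid RNA was thus counted in every one of these classes, and its part in the values below was not tested. The reporter transcript Gfp stood at 177.5 CPM in smooth muscle (46.7% of barcodes with a UMI) and at 454.6 CPM in pericytes (35.2%), whereas endogenous S100b reached 5 UMIs in smooth muscle and 1 in pericytes.

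Of the 9 members, 8 were higher in smooth muscle than in any other gated class. Myh11, the smooth muscle myosin heavy chain (chr16:14194527-14292188 in GRCm38.p6, as are the positions below), stood at 3049 CPM (2925 to 3176) in smooth muscle. The next class was pericytes at 414.8 CPM (325.1 to 521.5). The erythroid gate gave 24.8 CPM from 17 UMIs, and the other classes stayed at or below the fibroblast value of 7.67 CPM. Fibroblasts, Schwann cells, tenocytes and endothelial cells had overlapping intervals. Satellite cells and myoblasts held 2 Myh11 UMIs in all, or 0.74 CPM (0.09 to 2.67). Of all Myh11 UMIs in the library, 31.2% lay in the 122 smooth muscle barcodes.

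Acta2, smooth muscle α-actin (chr19:34240336-34255585), stood at 9000 CPM (8787 to 9218) in smooth muscle and at 1869 CPM (1673 to 2083) in pericytes. Its order below these differed from that of Myh11. Satellite cells and myoblasts followed at 280.2 CPM, tenocytes at 113.8 CPM, erythroid barcodes at 67.0 CPM and endothelial cells at 65.6 CPM, each above fibroblasts at 20.9 CPM (19.3 to 22.5). The place of endothelial cells rested on 1 barcode with 41 of their 57 UMIs, and without it they stood at 18.7 CPM (10.7 to 30.4), which overlaps fibroblasts. Myeloid barcodes, which should lack the gene, gave 10.1 CPM and Schwann cells 3.76 CPM.

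Actg2, the γ-actin of visceral smooth muscle (chr6:83512909-83536251), had few counts, with 9 UMIs in 2 smooth muscle barcodes and 13 UMIs in 4 pericytes. That made 12.0 CPM (5.49 to 22.8) in smooth muscle and 73.9 CPM (39.3 to 126.3) in pericytes. It was the only member with a higher level in pericytes.

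Both the light chain and its kinase were highest in smooth muscle and next in pericytes. Myl9, the regulatory light chain (chr2:156775408-156781657), stood at 3118 CPM (2993 to 3247) in smooth muscle, 1239 CPM (1080 to 1414) in pericytes and 57.0 CPM (54.4 to 59.6) in fibroblasts. Fibroblasts held 17.9% of the library's Myl9 UMIs, against 3.51% of its Myh11 UMIs. They held 33520398 of all 170648616 UMIs, so neither share was above their share of all UMIs. Mylk, the kinase (chr16:34745199-35002436), stood at 1596 CPM (1507 to 1689) in smooth muscle and 278.4 CPM (206.0 to 368.1) in pericytes. Tenocytes came next at 222.6 CPM (210.8 to 235.0), which overlapped the pericyte interval, and fibroblasts were at 15.7 CPM.

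The actin-binding members had the same pair of classes on top. Tagln, transgelin (chr9:45929628-45936058), stood at 8166 CPM (7963 to 8373) in smooth muscle, 2352 CPM in pericytes, 521.5 CPM in satellite cells and myoblasts and 210.5 CPM in endothelial cells. Cnn1, calponin, which slows the myosin motor (chr9:22099221-22109221), stood at 224.2 CPM (191.6 to 260.8) in smooth muscle and 34.1 CPM (12.5 to 74.2) in pericytes, and the other classes held at most 1.46 CPM. Lmod1, leiomodin, which nucleates actin filaments (chr1:135324813-135368065), stood at 439.1 CPM in smooth muscle, 130.7 CPM in pericytes and 4.51 CPM or less elsewhere. Smtn, smoothelin, which binds actin (chr11:3517522-3539292), had the smallest gap between smooth muscle and fibroblasts, with 194.9 CPM (164.5 to 229.2) in smooth muscle, 28.4 CPM (9.22 to 66.3) in pericytes, 25.3 CPM in endothelial cells, 19.9 CPM in tenocytes and 17.5 CPM in fibroblasts. The intervals of Smtn overlapped between pericytes, endothelial cells, tenocytes and fibroblasts.

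**Figure D1:**
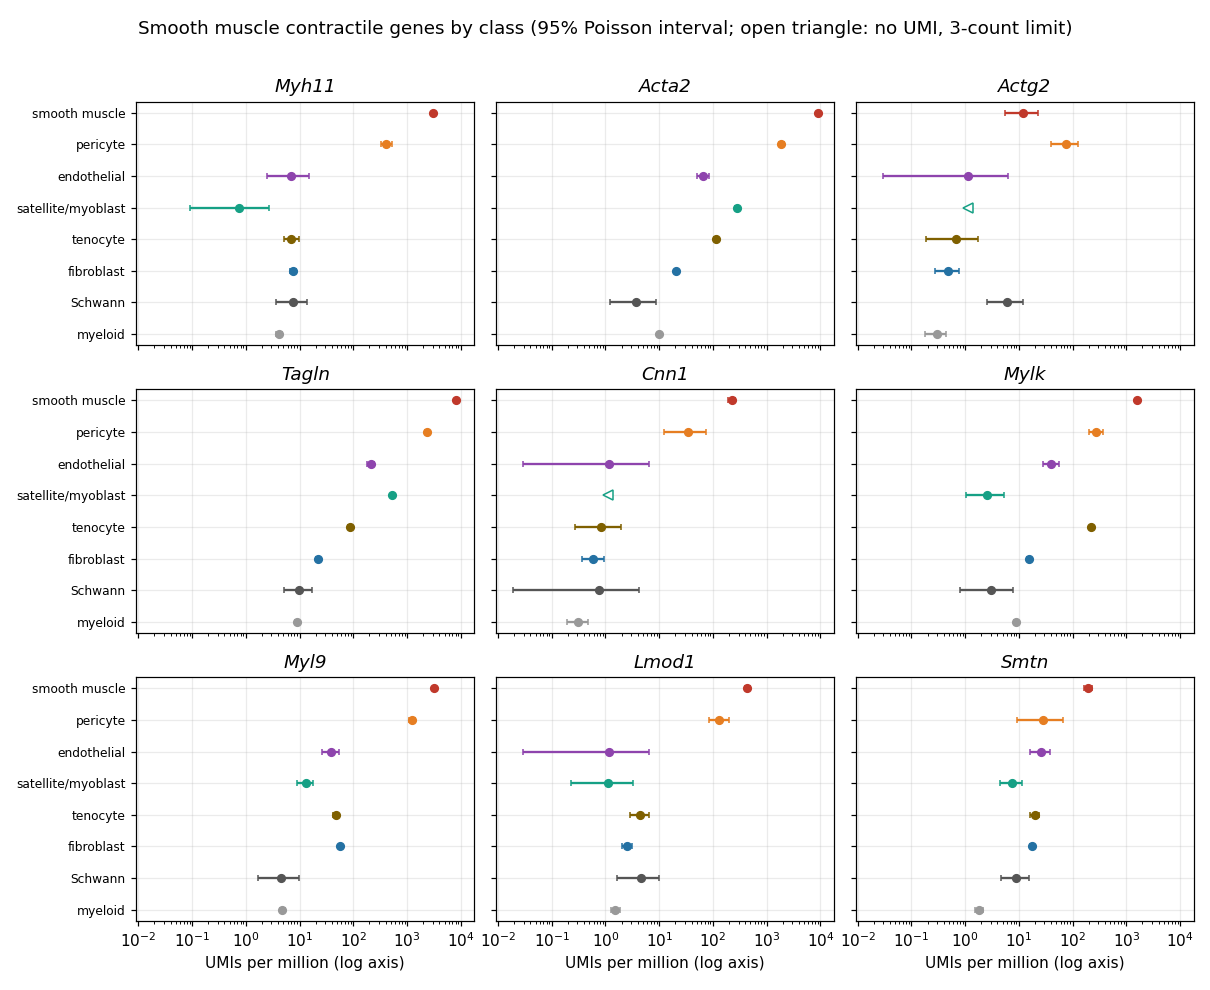
Level of each of the 9 genes in 8 classes, as CPM on a log axis; points are class values from 1 library, bars are exact Poisson 95% intervals and an open triangle is the 3-count limit of a class with no UMI. Smooth muscle is the highest class for 8 genes and pericytes for Actg2, while satellite cells and myoblasts come next after pericytes for Acta2 at 280.2 CPM, as tenocytes do for Mylk at 222.6 CPM.

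Between smooth muscle and pericytes, 8 of 9 members were at least 2-fold higher in smooth muscle. Among all 6316 features with at least 20 UMIs in these classes together, 14.9% were at least 2-fold higher and 11.4% at least 2-fold lower. The median log2 ratio of the members was 2.27, against −0.03 over all features tested. Myh11 (log2 2.88, 2.54 to 3.23), Smtn (2.78, 1.52 to 4.42) and Cnn1 (2.72, 1.57 to 4.18) had overlapping intervals, and Myl9 had the smallest ratio of the members that were higher (log2 1.33, 1.13 to 1.54). The ratios of Acta2 (log2 2.27, 2.11 to 2.43) and Tagln (log2 1.80, 1.65 to 1.94) lay between them, and that of Actg2 was −2.62 (−4.03 to −1.28). In deep barcodes, where only 6 pericytes remained, the Acta2 ratio fell to log2 1.57, Tagln to 0.80 and Myl9 to 0.59, so that 6 members were at least 2-fold higher, beside 26.3% of 4928 features.

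Against fibroblasts all 9 members were at least 2-fold higher in smooth muscle, beside 13.9% of 15894 features tested, and their median log2 ratio was 7.42 against −0.10 over all features. The log2 ratio was 8.64 (8.45 to 8.83) for Myh11, 8.75 (8.64 to 8.87) for Acta2 and 3.48 (3.21 to 3.75) for Smtn, the smallest. In deep barcodes it was 10.01 (9.67 to 10.36) for Myh11, 10.59 (10.35 to 10.84) for Acta2 and 3.50 for Smtn. Classes were set by other genes of the same barcodes, so these ratios describe the gated barcodes and are no test.

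Single smooth muscle barcodes varied widely. Acta2 ran from 0 to 27889 CPM with a median of 5762 CPM, and 2 of 122 barcodes held no Acta2 UMI. Myh11 ran from 0 to 8951 CPM with a median of 1742 CPM, and 14 barcodes held none. At least 3 members were found in 117 barcodes and at least 6 in 83, while 1 held no member. All 47 deep barcodes held both Acta2 and Myh11 UMIs, and 45 of them held at least 6 members. Deep and shallow smooth muscle differed in level as well, with Acta2 at 10311 CPM in deep and 4571 CPM in shallow barcodes.

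Pericytes were more uneven. Among the 54 pericytes, 18 held no UMI of any member, 29 held no Acta2 and 33 no Myh11. All 18 were among the 48 shallow pericytes, while each of the 6 deep ones held a member and 5 held both Acta2 and Myh11. The median barcode had 0 CPM of both genes, and the highest Acta2 value was 10446 CPM. The 5 pericytes with most Acta2 held 72.6% of the class's Acta2 UMIs, and the 5 with most Tagln held 82.6% of its Tagln UMIs. The pericyte levels above therefore describe a few rich barcodes more than the typical one. The richest had 76 Acta2 and 145 Tagln UMIs, together with Rgs5 at 9809 CPM and Myh11 at 1149 CPM. Without that barcode, Acta2 stood at 1536 CPM (1353 to 1738) and Tagln at 1633 CPM (1444 to 1841) in pericytes. The size of the class depended on 2 of its markers. Steap4 stood at 659.1 CPM in pericytes and 265.2 CPM in fibroblasts, and Ndufa4l2 at 551.1 CPM in pericytes and 295.0 CPM in smooth muscle. With both taken off the pericyte list, 33 barcodes were pericytes, and how many of them held no member was not counted.

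**Figure D2:**
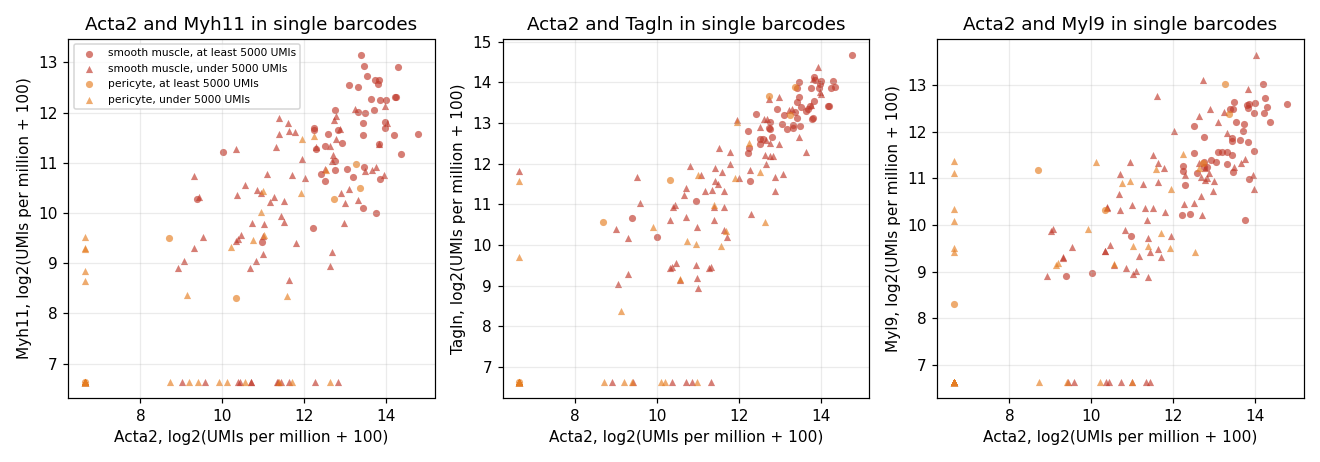
Single smooth muscle (red) and pericyte (orange) barcodes, with Acta2 on the x axis against Myh11, Tagln or Myl9 on the y axis, each as log2(CPM + 100); circles are barcodes with at least 5000 UMIs and triangles shallower ones. Smooth muscle barcodes rise together along the diagonal, 18 of 54 pericytes with no member sit at the lower left corner, and a few pericytes lie among the smooth muscle.

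After each barcode had been thinned to 1000 UMIs, 91.8% (85.4 to 95.9) of smooth muscle barcodes and 42.6% (29.2 to 56.8) of pericytes held an Acta2 UMI. Unthinned, the shares were 98.4% and 46.3%. For Myh11 the thinned shares were 75.4% and 20.4%.

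The filter on mitochondrial counts fell heavily on these genes. Among barcodes with enough UMIs and genes, the 1380 with 10% mitochondrial counts or more held 28.9% of the library's Acta2 UMIs. The smooth muscle gate took 63 of them, or 4.57%, against 0.48% of the kept barcodes. These 63 were deeper (median 7503 UMIs) and had higher levels than the 122 kept ones, with Acta2 at 13280 CPM (12944 to 13621), Myh11 at 4796 CPM and Myl9 at 5709 CPM. Without the filter, smooth muscle had 185 barcodes, and the log2 ratio to pericytes was 2.57 for Acta2 and 3.06 for Myh11.

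Fibroblasts were examined for the myofibroblast use of these genes. In fibroblast barcodes 2.55% (2.18 to 2.96) held an Acta2 UMI after thinning, against 1.84% (1.58 to 2.14) of myeloid barcodes. In deep barcodes, thinned alike, the shares were 1.17% (0.67 to 1.90) and 0.26% (0.14 to 0.45). Without thinning, 5.05% of fibroblasts and 4.01% of myeloid barcodes held one, and their median depths were 2442 UMIs and 6298 UMIs. Per UMI, Acta2 was log2 1.04 (0.89 to 1.19) higher in fibroblasts than in myeloid barcodes, and 4 of 9 members were at least 2-fold higher, beside 25.9% of all 18031 features tested. Those 4 were Acta2, Tagln, Myl9 and Smtn. In deep barcodes alone the count was 7 of the 8 members with at least 20 UMIs, beside 26.6% of 17252 features, and only Mylk fell short at log2 0.98 (0.75 to 1.21). In shallow barcodes, which made up 5147 of the 6509 fibroblasts, the direction turned for 7 of the 9 members. There Acta2 was lower in fibroblasts than in myeloid barcodes, with a log2 ratio of −0.28 (−0.45 to −0.11), as were Tagln at −0.31 (−0.49 to −0.13), Myh11 at −0.68 (−0.97 to −0.40) and Actg2, on 2 against 10 UMIs. The intervals of Mylk, Lmod1 and Cnn1 spanned 0. Myl9, at 0.84 (0.64 to 1.05), and Smtn, at 1.46 (1.02 to 1.93), were the members that stayed higher in fibroblasts at both depths.

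Depth separated the members within fibroblasts. In deep fibroblasts Acta2 stood at 6.71 CPM (5.65 to 7.91), Myh11 at 3.45 CPM and Tagln at 10.8 CPM. In shallow fibroblasts they stood at 45.0, 14.9 and 40.3 CPM. Myl9 (61.1 CPM deep, 50.0 CPM shallow) and Smtn (19.3 CPM deep, 14.3 CPM shallow) did not fall with depth. The same fall was seen in myeloid barcodes, where Acta2 stood at 54.8 CPM in the shallow and 2.36 CPM in the deep barcodes, Myh11 at 23.9 and 0.72 CPM and Myl9 at 27.9 and 0.75 CPM. In deep barcodes Myl9 was therefore log2 6.34 (5.91 to 6.80) higher in fibroblasts than in myeloid cells and Smtn log2 3.97 (3.61 to 4.35), against 2.42 (2.09 to 2.75) for Tagln, 2.26 (1.70 to 2.83) for Myh11 and 1.51 (1.16 to 1.85) for Acta2. The part of free RNA in these low counts was not tested.

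**Figure D3:**
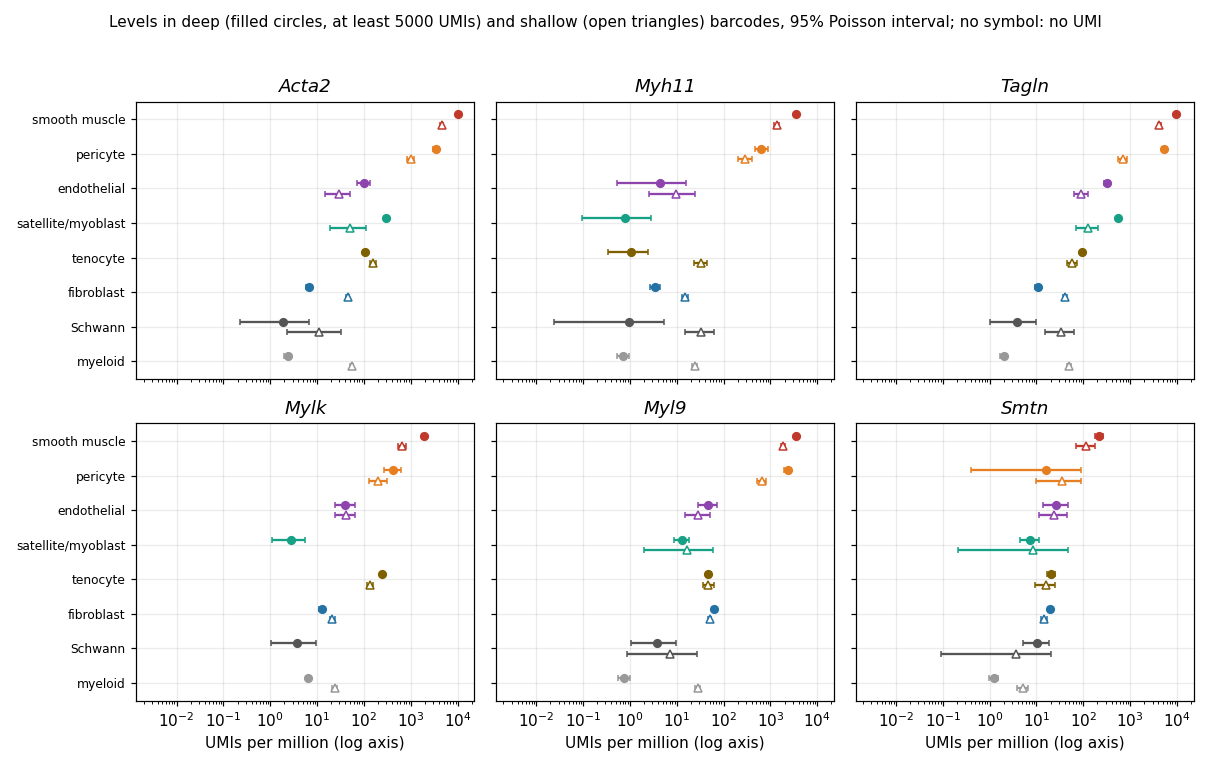
Level of 6 genes in deep barcodes (filled circles, at least 5000 UMIs) and shallow barcodes (open triangles) of 8 classes, as CPM on a log axis with exact Poisson 95% intervals. Acta2, Myh11 and Tagln are higher in shallow than in deep myeloid and fibroblast barcodes, while Myl9 (61.1 against 50.0 CPM) and Smtn (19.3 against 14.3 CPM) in fibroblasts are not.

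Acta2 was set against the matrix genes of myofibroblasts within the fibroblast class, and the direction depended on the gene and on single barcodes. The 11 matrix genes of myofibroblasts, among them Postn (periostin) and Cthrc1, gave 4787 matrix-high fibroblasts and 1722 others. Matrix-high means at least 3 UMIs over 2 of these genes, a low cut that most fibroblasts passed, with 1278 of the 1362 deep ones. The name therefore does not set myofibroblasts apart from other fibroblasts. Acta2 stood at 18.4 CPM in matrix-high and 37.2 CPM in other fibroblasts, a log2 ratio of −1.01 (−1.27 to −0.75). Matrix-high fibroblasts were deeper (median 2717 against 2007 UMIs), and among deep fibroblasts the log2 ratio was −2.01 (−2.71 to −1.23). That last value rested on 19 Acta2 UMIs in 4 of 84 barcodes, with 15 of them in 1 barcode. Without the barcode with most Acta2 in each group, Acta2 stood at 5.21 CPM (4.27 to 6.30) in matrix-high and 5.20 CPM (1.42 to 13.3) in other deep fibroblasts. The shares with a UMI were 4.46% and 4.76%. Tagln had a log2 ratio of −0.68 over all depths and −2.19 in deep fibroblasts, where 28 of the 34 UMIs of the other group lay in 1 barcode. Without the richest barcodes, it stood at 6.73 CPM (5.65 to 7.96) in matrix-high and 7.80 CPM (2.86 to 17.0) in other deep fibroblasts. Mylk had a log2 ratio of −0.92 over all depths and −2.21 (−2.70 to −1.69) in deep fibroblasts, and kept its gap without the richest barcodes, at 10.5 CPM (9.15 to 12.0) and 45.7 CPM (31.9 to 63.6). Myl9 had a log2 ratio of −0.03 (−0.22 to 0.17) over all depths and −0.56 (−0.91 to −0.19) in deep fibroblasts, and without the richest barcodes its intervals overlapped, at 59.6 CPM (56.3 to 63.1) and 68.9 CPM (51.6 to 90.2). Across 5 fibroblast subsets, Acta2 ran from 10.6 CPM in those marked by Pi16, Dpp4 and Sema3c to 58.5 CPM in those marked by Gdf10 and Inmt. Myl9 ran from 43.0 to 89.6 CPM over the same subsets.

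A small number of fibroblasts held Acta2 without Myh11. At least 2 Acta2 UMIs were found in 129 fibroblasts (1.98%), and 52 of these also held Myh11. The other 77 had Postn at 2566 CPM, Tnc at 334.9 CPM, Cthrc1 at 295.4 CPM and Lrrc15 at 62.8 CPM. Fibroblasts with no Acta2 UMI had 641.4, 43.7, 52.5 and 2.26 CPM of these genes. The contrast rested on few barcodes, since the 5 of 77 with most of each gene held 75.3% of the Postn, 84.3% of the Cthrc1 and all of the Lrrc15 UMIs. Only 15 deep fibroblasts had at least 2 Acta2 UMIs and no Myh11. Among them, the barcode with most Acta2 (17 UMIs) held 57 Tagln, 31 Col8a1 and 13 Postn UMIs of 30395. The next, with 15 Acta2, 28 Tagln and 16 Myl9 UMIs, held no Postn. The barcode with most matrix UMIs had 426 Postn, 84 Tnc, 81 Adam12 and 50 Cthrc1 UMIs with 2 of Acta2 and 1 of Tagln. Another barcode held both, with 8 Acta2, 48 Postn, 41 Cthrc1 and 19 Lrrc15 UMIs but no Tagln. Conversely, of the 59 deep fibroblasts with at least 5 Cthrc1 UMIs, 8.47% (2.81 to 18.7) held Acta2, against 4.30% (3.26 to 5.54) of the other deep fibroblasts, and their median depth was 24921 against 14814 UMIs. Per UMI, Acta2 stood at 10.6 CPM (6.06 to 17.2) in these and 6.41 CPM (5.34 to 7.64) in the others, with overlapping intervals. A single barcode held 8 of their 16 Acta2 UMIs, and without it they stood at 5.48 CPM (2.36 to 10.8). The intervals did not overlap for Adam12, where the 83 with at least 5 UMIs had Acta2 at 18.8 CPM (13.1 to 26.1) and the other 1279 at 5.55 CPM (4.55 to 6.70). Here too 1 barcode held 17 of 35 Acta2 UMIs, and without it the 83 fell to 9.81 CPM (5.81 to 15.5), which overlaps the others. For Tnc, the 36 had 12.7 CPM (6.07 to 23.3) and the others 6.48 CPM (5.42 to 7.69), and without the richest barcode the former stood at 6.42 CPM. The 3 with at least 5 Lrrc15 UMIs had 77.6 CPM (33.5 to 152.9) against 6.37 CPM, with all 8 UMIs in 1 barcode. For Postn, the 539 had Acta2 at 5.78 CPM (4.41 to 7.44) and the other 823 at 7.61 CPM (6.05 to 9.45), again overlapping.

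Tagln was read in the same groups of deep fibroblasts. In the 36 deep fibroblasts with at least 5 Tnc UMIs Tagln stood at 34.2 CPM (22.5 to 49.7), from 27 UMIs in 9 barcodes, against 9.87 CPM (8.55 to 11.3) in the others. Without the barcode with most Tagln in each group the values were 25.9 CPM (15.8 to 40.05) and 7.08 CPM (5.97 to 8.34), so this gap did not rest on 1 barcode. For Adam12, Tagln stood at 41.8 CPM (33.1 to 52.2) against 7.78 CPM (6.58 to 9.13), but 57 of the 78 UMIs lay in 1 barcode, and without the richest barcodes the values overlapped at 11.4 CPM (7.08 to 17.5) and 6.33 CPM (5.26 to 7.56). For Cthrc1, Tagln was lower in the 59, at 3.98 CPM (1.46 to 8.65) against 11.3 CPM (9.86 to 12.9), and without the richest barcodes these stood at 2.00 CPM (0.41 to 5.83) and 8.41 CPM (7.18 to 9.80). For Postn the intervals overlapped, and the 3 with at least 5 Lrrc15 UMIs held no Tagln.

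Tenocytes, the tendon cells, carried Mylk and Acta2, and their Myh11 differed with depth. Over all depths Myh11 stood at 7.08 CPM (5.11 to 9.57), which overlaps the fibroblast interval, and in shallow tenocytes at 32.3 CPM (22.8 to 44.6) against 14.9 CPM in shallow fibroblasts. In deep tenocytes Mylk stood at 243.7 CPM (229.9 to 258.1), Acta2 at 103.9 CPM (94.9 to 113.4), Tagln at 95.9 CPM and Myh11 at 1.04 CPM (0.34 to 2.44). Against fibroblasts, 3 of 9 members were at least 2-fold higher in tenocytes (Acta2, Tagln and Mylk), beside 9.66% of 16308 features tested. The log2 ratios were 3.83 (3.68 to 3.98) for Mylk, 2.45 for Acta2 and 2.03 for Tagln. In deep barcodes they were 4.28, 3.95 and 3.15. Mylk was spread over 41.4% of tenocytes, and leaving out the barcode with most UMIs left it at 218.4 CPM. The 29 tenocytes with at least 5 Acta2 UMIs had Tnmd, tenomodulin, at 1601 CPM and Scx, the tendon transcription factor, at 591.9 CPM, beside 1379 and 386.2 CPM in tenocytes with no Acta2 UMI. Their Myh11 stood at 22.1 CPM, from 8 UMIs. By position, the Mylk gene overlaps 2 other genes in the annotation, and Tagln, Actg2 and Smtn each overlap 1. Whether counts are shared with them was not tested.

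Satellite cells and myoblasts, the muscle stem cells and their dividing progeny, held Acta2 and Tagln and no Cnn1 or Actg2 UMI, where 3 counts would give 1.11 CPM. Against fibroblasts, 2 of the 8 members with enough UMIs were at least 2-fold higher (Acta2 and Tagln), beside 9.93% of 15998 features, and 6 were at least 2-fold lower, beside 29.4%. The log2 ratio was 4.59 (4.46 to 4.72) for Tagln, 3.75 (3.60 to 3.90) for Acta2 and −2.14 (−2.66 to −1.66) for Myl9. Of these barcodes 231 of 264 were deep, against 1362 of 6509 fibroblasts, and in deep barcodes alone the log2 ratio was 5.65 (5.44 to 5.85) for Tagln, 5.44 (5.18 to 5.71) for Acta2 and −2.26 (−2.80 to −1.76) for Myl9. Among the 6 lower members, the intervals of Lmod1 (−3.51 to 0.39) and of Cnn1, which had no UMI, reached above 0. An Acta2 UMI was present in 43.6% of these barcodes and a Tagln UMI in 58.3% (14.8% and 20.8% after thinning). In the 105 barcodes with a UMI of the myogenic factors Myod1 or Myog, Acta2 stood at 365.8 CPM and Tagln at 470.9 CPM. In the other 159, Acta2 stood at 220.3 CPM and Tagln at 557.0 CPM.

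Few barcodes held most of the Acta2. The 19 with at least 10 Acta2 UMIs had Acta2 at 1397 CPM and Tagln at 894.1 CPM, with no Myh11, Mylk or Cnn1 UMI. In these, the differentiation factor Myog stood at 225.1 CPM and the proliferation genes Top2a and Mki67 at 407.0 and 231.2 CPM. Pax7, the stem cell factor, was at 141.8 CPM there. The 149 barcodes with no Acta2 UMI had no Myog UMI, Top2a at 20.3 CPM, Mki67 at 9.76 CPM and Pax7 at 301.7 CPM. Median depth was 16443 UMIs in the 19 and 7810 UMIs in the 149.

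Endothelial cells gave Tagln at 210.5 CPM and Acta2 at 65.6 CPM, but 1 barcode of 203 held 96 of the 183 Tagln UMIs and 41 of the 57 Acta2 UMIs. Without it, Tagln stood at 101.8 CPM (81.5 to 125.6) and Acta2 at 18.7 CPM (10.7 to 30.4). Endothelial barcodes with an Rgs5 UMI, 34 in number, had Acta2 at 12.0 CPM, from 2 UMIs. Acta2 stood at 28.8 CPM (14.9 to 50.3) in shallow endothelial barcodes, against 45.0 CPM in shallow fibroblasts. Schwann cells were at or below 9.78 CPM for all 9 members. Of their 10 Myh11 UMIs, 6 lay in 1 barcode, and their Actg2, with 8 UMIs in 7 barcodes, stood at 6.02 CPM (2.60 to 11.9).

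The ratio of each member to Myh11 within a class does not depend on the class's total. In deep smooth muscle there were 2.91 (2.76 to 3.06) Acta2 UMIs for each Myh11 UMI, 2.63 Tagln, 0.98 Myl9, 0.53 Mylk and 0.06 Smtn UMIs. Deep fibroblasts had 1.95 (1.46 to 2.62) Acta2 and 3.12 (2.39 to 4.12) Tagln UMIs for each Myh11 UMI. Acta2 was thus below smooth muscle, while the fibroblast interval of Tagln held the smooth muscle ratio. Of their 228 Tagln UMIs, 57 and 28 lay in 1 barcode each, both without Myh11, and the Tagln ratio would be lower without these barcodes. The fibroblast ratios of Myl9, at 17.7 (14.0 to 22.7), and Smtn, at 5.59 (4.35 to 7.27), were above those of smooth muscle. So were Mylk at 3.63 (2.79 to 4.77), Lmod1 at 0.63 (0.43 to 0.92) and Actg2 at 0.19 (0.10 to 0.34). Deep myeloid barcodes had ratios of 3.27 (2.32 to 4.70) for Acta2, 2.80 for Tagln and 1.05 (0.68 to 1.62) for Myl9, each with smooth muscle inside the interval. Their Mylk ratio of 8.77 (6.41 to 12.3) was above that of smooth muscle, as were those of Smtn, Lmod1 and Actg2. Deep tenocytes had 233.2 Mylk and 99.4 Acta2 UMIs for each Myh11 UMI, and deep satellite cells and myoblasts 375.5 Acta2 and 697.0 Tagln UMIs, on 5 and 2 Myh11 UMIs. Deep pericytes had 5.42 (3.86 to 7.80) Acta2 and 8.40 (6.04 to 12.0) Tagln UMIs for each Myh11 UMI.

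**Figure D4:**
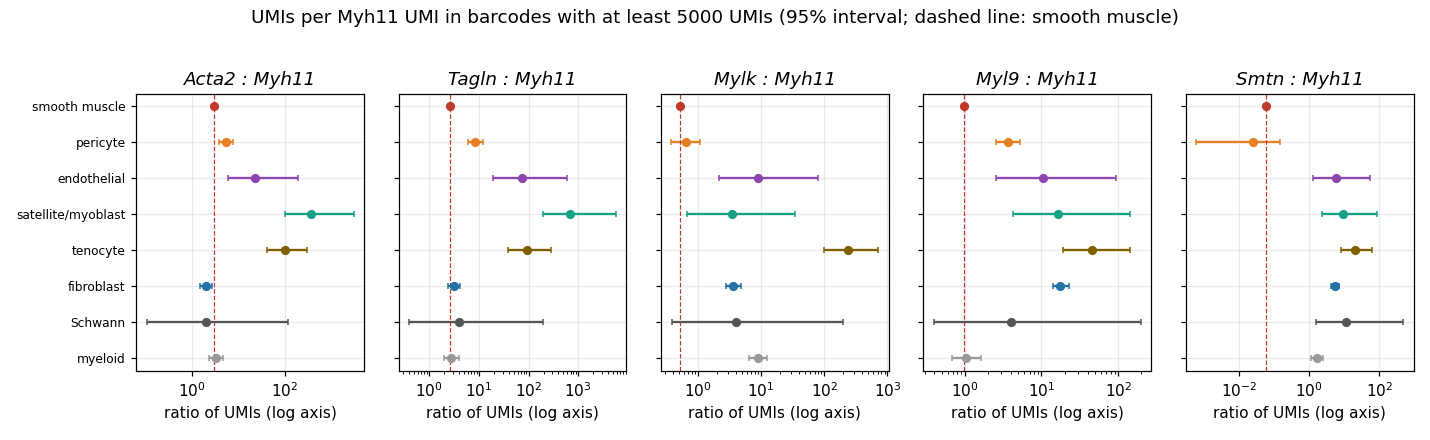
UMIs of 5 genes for each Myh11 UMI in deep barcodes of 8 classes, on log axes with exact 95% intervals; the dashed line is the smooth muscle ratio. The intervals of Acta2 and Tagln in myeloid cells and of Tagln in fibroblasts hold the line, while that of Acta2 in fibroblasts lies to its left. Tenocytes and satellite cells and myoblasts lie far to the right of it (99.4 and 375.5 Acta2 UMIs).

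Barcodes rich in the members were sought without the gates. At least 3 UMIs over 2 members, at 5 times the library's share or more, were found in 750 kept barcodes (2.96%). Of these, 119 were smooth muscle (97.5% of that class), 24 pericytes (44.4%) and 94 fibroblasts (1.44%). There were also 136 myeloid barcodes (1.47%), 29 tenocytes (3.38%) and 20 satellite cells and myoblasts (7.58%). A further 181 passed several gates and 123 none. Among all 36400 barcodes, before the filters, the share of member-rich barcodes was 4.82% at 1000 to 1500 UMIs and 1.66% at 5000 UMIs or more. The rule asks for more member UMIs in a deeper barcode, so these shares are not alike across depths. The levels differed less, with Acta2 at 150.5 and 133.4 CPM and Myh11 at 49.2 and 43.3 CPM.

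Other genes of the contractile apparatus moved with the members between smooth muscle and fibroblasts, and less so between smooth muscle and pericytes. Of 23 further contractile and cytoskeletal genes, 21 were at least 2-fold higher in smooth muscle than in fibroblasts (13.9% of all features were) and 1 was lower (27.2%), and 12 of 22 were higher than in pericytes (14.9%). Tpm2, β-tropomyosin, stood at 4500 CPM in smooth muscle, 761.4 CPM in pericytes and 36.4 CPM in fibroblasts. Tpm1, another tropomyosin, stood at 2553, 630.7 and 69.7 CPM, and Myl6, the essential light chain, at 5322, 1455 and 756.3 CPM. Cald1, caldesmon, which binds actin, stood at 1823, 971.6 and 255.7 CPM. Prkg1, the cGMP-dependent kinase of relaxation, stood at 1526, 1023 and 213.6 CPM. Ppp1r12a, the myosin phosphatase targeting subunit, stood at 1092, 426.1 and 196.7 CPM. The 3 other actins with enough UMIs stayed within 2-fold in both comparisons, with Actb at 8185, 7773 and 4673 CPM. Not all of these genes were highest in smooth muscle among the gated classes. Prkg1 was higher in Schwann cells, at 1971 CPM, and Tpm2 and Tpm1 were higher in muscle fibre barcodes, at 6162 and 10259 CPM.

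Among 11 regulators of the smooth muscle programme, 6 were at least 2-fold higher in smooth muscle than in fibroblasts (13.9% of all features were), and 3 of 9 than in pericytes (14.9%). Myocd, which encodes myocardin, had 89 UMIs in smooth muscle (118.8 CPM) and stood at 11.4 CPM in pericytes and 0.21 CPM in fibroblasts, with no UMI in satellite cells and myoblasts. Srf, its partner, had 9 UMIs in smooth muscle (12.0 CPM) against 6.47 CPM in fibroblasts, and the log2 ratio of 0.89 had an interval that spans 0 (−0.26 to 1.84). Klf4, a repressor of the programme, stood at 642.0 CPM in smooth muscle, 221.6 CPM in pericytes and 850.8 CPM in fibroblasts. The Notch ligand Jag1 stood at 252.3, 142.0 and 39.0 CPM, and the transcription factors Tbx2 and Heyl at 109.5 and 89.4 CPM in smooth muscle and 3.70 and 4.39 CPM in fibroblasts. Mrtfa, a coactivator of Srf, was at 61.4 CPM in smooth muscle and 68.7 CPM in fibroblasts. Heyl was at 136.6 CPM in satellite cells and myoblasts.

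Matrix genes of myofibroblasts went the other way. Of 11, 8 were at least 2-fold lower in smooth muscle than in fibroblasts (27.2% of all features were), and none was at least 2-fold higher. The 8 include Lrrc15, with no UMI in smooth muscle, but its upper limit of 4.92 CPM lay above the 3.10 CPM of fibroblasts, so a lower level was not detectable at this depth. Aspn, asporin, was at 512.5 CPM in smooth muscle against 376.1 CPM in fibroblasts. Fn1, fibronectin, stood at 234.9 CPM in smooth muscle and 2055 CPM in fibroblasts, and Lox, a collagen cross-linking enzyme, at 102.8 and 248.4 CPM. Postn stood at 93.4 CPM in smooth muscle, 426.1 CPM in pericytes and 677.6 CPM in fibroblasts. Col8a1, a collagen, stood at 37.4, 17.0 and 69.1 CPM and Tnc, tenascin C, at 29.4, 68.2 and 48.2 CPM.

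The genes whose pattern was most like the members' mean profile (the mean of their z-scores) were found by Pearson's r of log2(CPM + 1) over 10 classes, among 1213 genes with at least 100 UMIs in smooth muscle. These class values share 1 library and differ in depth, so r is a description. Kcnab1, a subunit of voltage-gated potassium channels, came first (r = 0.97), at 860.9 CPM in smooth muscle and 96.6 CPM in pericytes. Npy1r, a neuropeptide Y receptor, followed (r = 0.96), at 221.6 and 73.9 CPM. Gm13861, Rasl11a, Cabp1, Cog7, Mfge8, Ppp1r14a, Myl6 and Tle1 made up the other 8, with r between 0.90 and 0.95. Rasl11a, a small GTPase of the Ras family, stood at 1244 CPM in smooth muscle and 312.5 CPM in pericytes. Each member is part of the mean profile, so its own r is in part fixed beforehand, and these ran from 0.79 for Smtn to 0.98 for Myl9.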

How the data were processed

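The authors aligned and counted the reads with Cell Ranger and deposited raw UMI counts per gene and barcode. The submitters' processing notes name Cell Ranger 7.1.0, Seurat 4.30 and mm10, the matrix header names cellranger 8.0.1, and the paper names GRCm38 and GRCm39. Positions and promoters here are those of RefSeq GRCm38.p6. No column of another sample was used. The members and lists were chosen with earlier results of these data known.

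Kept barcodes had at least 1500 UMIs, over 200 genes and less than 10% mitochondrial UMIs, and thinned shares used 1000 UMIs drawn from each. A gate needed at least 3 UMIs over 2 list genes at the library's share (fibroblast, myeloid) or 5 times it (all others). Barcodes passing several gates were left out, which stood in for doublet removal. Mural barcodes were split by the list with more UMIs, at least 2. The text names the 9 members, up to 6 genes of each list with most UMIs in smooth muscle, and the 10 genes most like the members. Cthrc1, Lrrc15, Adam12, Srf, Pax7, Myog, Top2a, Mki67, Scx, Tnmd and the gate genes were named after their values were seen, as were the barcode groups by Acta2 or matrix UMIs and the values without the richest barcode. CPM carry exact Poisson, shares exact binomial (Clopper-Pearson) and log2 ratios exact conditional 95% intervals. PCR and RNA of other cells are outside them. Of the GFP+ barcodes, 372 (1.02%) also occur in the GFP- library, whose expression values were left out. Python 3.11.15, numpy 2.4.6, scipy 1.17.1 and scanpy 1.11.5 were used, and the intervals, gates and thinning were tested on simulated data.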

Additional observations from a re-analysis of the deposited data

Results flagged for a closer look

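Counts of the members were found in barcodes that the comparisons left out. In each group below, the values lay above those of myeloid barcodes (Acta2 10.1 CPM, Myh11 4.15 CPM). These groups are not gated classes and can include smooth muscle, so that comparison says little. Shallow myeloid barcodes stood higher, at 54.8 CPM for Acta2 and 23.9 CPM for Myh11. The whole library stood at 128.6 CPM for Acta2 and 42.8 CPM for Myh11, near the values of the barcodes under 1500 UMIs. In the 1380 barcodes with 10% mitochondrial counts or more, Acta2 stood at 1452 CPM (1417 to 1489) and Myh11 at 525.5 CPM (504.2 to 547.4). In the 9628 barcodes under 1500 UMIs, Acta2 stood at 150.5 CPM (143.7 to 157.5) and Myh11 at 49.2 CPM (45.4 to 53.3). In the 3087 barcodes that passed several gates, Acta2 stood at 249.6 CPM (240.3 to 259.3) and Myh11 at 99.7 CPM (93.8 to 105.8).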

How the results depend on the processing

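The 8 results recomputed under 10 alternatives gave 66 values. Of the log2 ratios and shares, 22 moved by less than their counting interval and 28 by more, the 16 counts of members stayed within 1.5 times, and no log2 ratio changed sign. The cause of the changes was not tested. With at least 5000 UMIs per barcode, the log2 ratio of smooth muscle to pericytes was 1.57 for Acta2 and 2.47 for Myh11, that to fibroblasts 10.6 and 10.01, and the Acta2 share 1.17% in fibroblasts and 0.26% in myeloid barcodes. With no mitochondrial filter, the Acta2 ratio was 2.57 to pericytes and 8.97 to fibroblasts, and that of Myh11 to fibroblasts 8.88. With barcodes of several gates given to the gate with most list UMIs, the Acta2 ratios were 2.51 and 8.08, the Myh11 ratio to fibroblasts 7.98, and the shares 3.09% and 2.31%. With smooth muscle gated on the other 8 members, the ratios to pericytes were 1.89 (Acta2) and 2.46 (Myh11) and those to fibroblasts 8.38 and 8.22. A gate of 5 UMIs gave an Acta2 ratio to fibroblasts of 8.60, and leaving out the 5300 barcodes with the highest Scrublet doublet scores gave a myeloid share of 1.58%. Thinning to 500 UMIs gave shares of 1.69% and 1.07%, and no thinning 5.05% and 4.01%. Chosen after seeing the data, at least 1000 UMIs gave ratios to fibroblasts of 8.38 (Acta2) and 8.36 (Myh11) and a fibroblast share of 3.08%, and a pericyte list without Steap4 and Ndufa4l2 an Acta2 ratio to pericytes of 2.05. The members at least 2-fold above pericytes numbered 6 at 5000 UMIs, 7 with the gate on other members and 8 under the others, and all 9 stayed above fibroblasts. Depth limits Actg2, Cnn1 and Smtn in pericytes, with 13, 6 and 5 UMIs. No paired analysis was possible because each group holds 1 library.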
